A study of Bos taurus with 31 samples.

Results

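The transcripts described here are those of 9 antigen processing and presentation genes in the liver of dairy cows: *B2M*, *TAP1*, *TAP2*, *TAPBP*, *NLRC5*, *PSMB8*, *PSMB9*, *CIITA* and *CD74*. They were taken by gene symbol from a table of read counts with 24616 gene rows, and all 9 symbols were found there, each in 1 row. The liver was sampled by puncture biopsy from 31 lactating German Holstein cows after 16 weeks on 1 of 4 total mixed rations, and polyadenylated RNA was sequenced with a strand-keeping kit. The rations held either feedstuffs with glyphosate residues (GLY) or control feedstuffs (CON), and a concentrate feed proportion (CFP) of either 60% (HC) or 30% (LC) of the dry matter. This gave 8 CONHC, 8 CONLC, 8 GLYHC and 7 GLYLC cows, each sequenced once. All cows shared breed, adaptation ration and sampling week, and the cow was the replicate.

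Cells show peptides to T cells on major histocompatibility complex (MHC) molecules. For class I, the proteasome cuts proteins of the cell itself, a transporter carries the peptides into the endoplasmic reticulum, and a loading complex fits them onto a heavy chain paired with beta-2-microglobulin. For class II, found mainly on macrophages, dendritic cells and B cells, the invariant chain guards the groove until the complex reaches a lysosome-like compartment, where proteases replace it with peptide. Interferon gamma raises both routes through the transactivators NLRC5 (class I) and CIITA (class II). A liver biopsy mixes hepatocytes with Kupffer cells, other leukocytes and endothelium, so a difference in the number of cells of a type and a difference in RNA per cell cannot be told apart in these values.

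The libraries held 11675775 to 36675542 counted reads (median 19781078). Levels are given as CPM, the read count of a gene relative to the size of its library after scaling by the trimmed mean of M values (TMM), and are compared between cows but not between genes, because gene length was not taken into account. The hepatocyte transcript *ALB* reached at least 42900 CPM in each of the 31 cows, and the leukocyte transcript *PTPRC* lay between 19.4 and 49.1 CPM. Cow 912 (GLYLC) stood apart with 271.8 CPM over 4 genes of intestinal epithelium, against at most 1.74 CPM in the other groups, and had the lowest *ALB* level of all cows. A gene was called changed at an unadjusted p under 0.05 together with a Benjamini-Hochberg adjusted p under 0.1 in the quasi-likelihood test of edgeR, run on 15916 genes with at least 20 reads in sum. All 9 antigen presentation genes passed this filter.

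**Figure D1:**
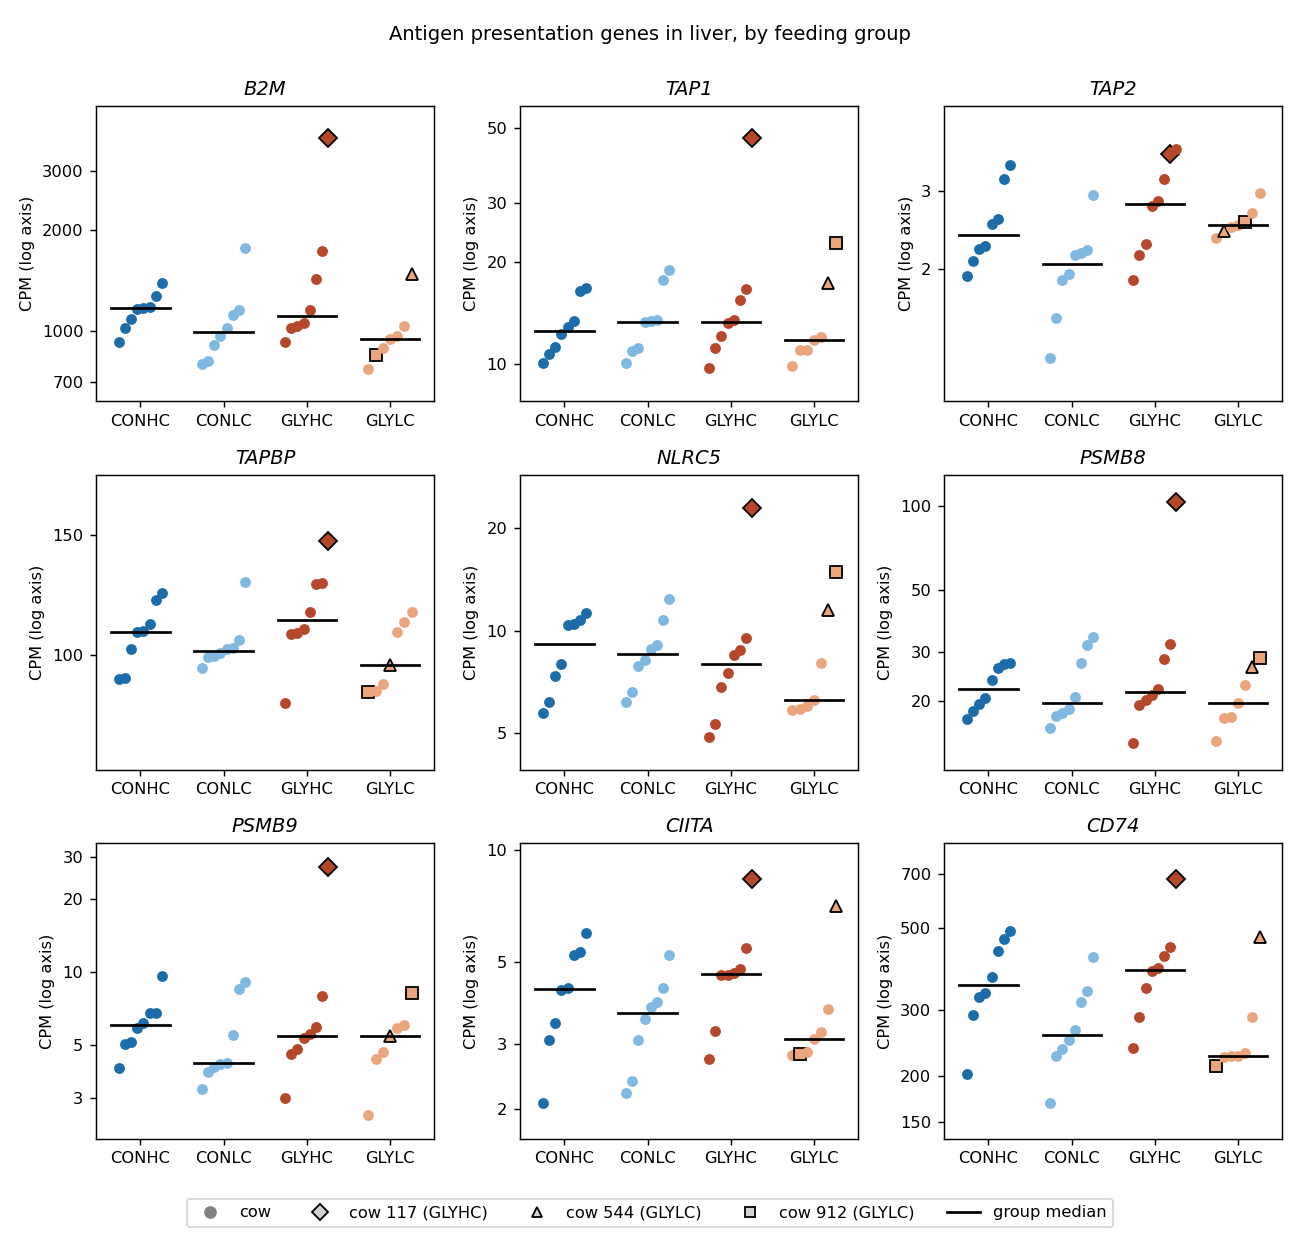
Level of each of the 9 genes in CPM (vertical log axis) in the 4 feeding groups; each point is 1 cow, black lines are group medians, and cows 117, 544 and 912 have their own symbols. The groups overlap for all 9 genes, and cow 117 (GLYHC) is the highest of the 31 cows for 8 of them.

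*B2M* (ENSBTAG00000012330) encodes beta-2-microglobulin, the invariant light chain of class I molecules. Its level ran from 927.0 over a median of 1167 to 1392 CPM in CONHC, and from 791.9 over 991.6 to 1763 CPM in CONLC. In GLYHC it ran from 924.7 over 1105 to 3773 CPM, and in GLYLC from 769.4 over 942.8 to 1482 CPM. The group ranges overlapped, and the top of 3 of them was set by a single cow well above the next, cow 260 in CONLC, cow 117 in GLYHC and cow 544 in GLYLC. The group means were 1149 ± 144 (SD, n = 8) in CONHC and 1065 ± 310.1 CPM in CONLC (n = 8). They were 1514 ± 950.3 in GLYHC (n = 8) and 989.3 ± 233.7 CPM in GLYLC (n = 7). The SD was largest in GLYHC, the group of cow 117.

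*TAP1* (ENSBTAG00000008953) and *TAP2* (ENSBTAG00000003037) encode the partner chains of the peptide transporter of the endoplasmic reticulum. *TAP1* had lowest, median and highest values of 10.1, 12.5 and 16.7 CPM in CONHC and of 10.03, 13.3 and 19.0 CPM in CONLC. The same values were 9.69, 13.3 and 46.5 CPM in GLYHC and 9.83, 11.7 and 22.8 CPM in GLYLC. The 4 medians lay close together, and the extremes were cow 117 in GLYHC and cow 912 in GLYLC. *TAP2* was a weakly covered gene with 16 to 97 reads per cow. It ran from 1.94 over 2.39 to 3.45 CPM in CONHC, from 1.26 over 2.05 to 2.95 CPM in CONLC, from 1.89 over 2.82 to 3.75 CPM in GLYHC and from 2.35 over 2.52 to 2.98 CPM in GLYLC. The CONLC cows were the low group for *TAP2*, and the GLYLC cows had the narrowest range, which overlapped that of each other group. In contrast to the other 8 genes, the highest *TAP2* value belonged to cow 152 (GLYHC), with cow 117 second at 3.64 CPM.

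*TAPBP* (ENSBTAG00000016828) encodes tapasin, which bridges the transporter and the empty class I molecule. It was the steadiest of the 9 genes, with a ratio of highest to lowest cow of 1.73. Its values ran from 92.1 over 108.1 to 123.2 CPM in CONHC, from 95.7 over 101.3 to 127.7 CPM in CONLC, from 84.9 over 112.5 to 146.9 CPM in GLYHC and from 88.2 over 96.7 to 115.7 CPM in GLYLC. The GLYHC group held both the lowest cow (37) and the highest cow (117).

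*PSMB8* (ENSBTAG00000003039) and *PSMB9* (ENSBTAG00000008954) encode inducible catalytic subunits of the immunoproteasome, which take the place of *PSMB5* and *PSMB6* products and change the peptides that are cut. *PSMB8* ran from 17.3 over 22.1 to 27.5 CPM in CONHC and from 15.99 over 19.8 to 33.9 CPM in CONLC. In GLYHC it ran from 14.2 over 21.6 to 104.2 CPM, and in GLYLC from 14.4 over 19.7 to 28.6 CPM. The medians of the 4 groups differed little beside the spread within each group, and the second-highest GLYHC cow had 32.0 CPM. *PSMB9* ran from 4.02 over 6.02 to 9.63 CPM in CONHC, from 3.27 over 4.18 to 9.04 CPM in CONLC, from 2.996 over 5.43 to 27.3 CPM in GLYHC and from 2.55 over 5.45 to 8.22 CPM in GLYLC. It had the widest range of the 9 genes, with 10.7 times more CPM in the highest than in the lowest cow.

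*NLRC5* (ENSBTAG00000005413) encodes the transactivator of class I genes. It ran from 5.72 over 9.15 to 11.2 CPM in CONHC, from 6.17 over 8.53 to 12.4 CPM in CONLC, from 4.89 over 7.98 to 22.9 CPM in GLYHC and from 5.86 over 6.27 to 14.8 CPM in GLYLC. The GLYLC median was the lowest of the 4, although cow 912 of that group had the second-highest value of all cows.

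*CIITA* (ENSBTAG00000020649) encodes the transactivator of class II genes, and *CD74* (ENSBTAG00000015228) the invariant chain. *CIITA* ran from 2.09 over 4.22 to 5.98 CPM in CONHC, from 2.21 over 3.64 to 5.23 CPM in CONLC, from 2.74 over 4.65 to 8.36 CPM in GLYHC and from 2.81 over 3.09 to 7.08 CPM in GLYLC. *CD74* ran from 202.5 over 351.8 to 493.0 CPM in CONHC, from 169.0 over 257.2 to 418.5 CPM in CONLC, from 237.6 over 386.1 to 678.9 CPM in GLYHC and from 212.9 over 226.6 to 472.4 CPM in GLYLC. For both genes the HC medians lay above the LC medians under either treatment, while the ranges overlapped. The *CD74* means were 364.6 ± 97.3 (SD, n = 8) in CONHC and 398.5 ± 132.4 CPM in GLYHC (n = 8), against 277.5 ± 77.8 in CONLC (n = 8) and 268.4 ± 93.2 CPM in GLYLC (n = 7).

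To examine the concentrate feed proportion over both treatments, HC cows were compared with LC cows with treatment as a covariate. None of the 9 genes was called by edgeR, where 1.45% of the 15916 tested genes were called (0.679% higher and 0.773% lower in HC). DESeq2 on all cows called 1 of 9, but it also called more genes in total, 434 against 231 with edgeR. By direction, the fitted log2 fold change lay above 0 for 9 of 9 genes, between 0.07 and 0.48 with a median of 0.29. Of all tested genes, 46% lay above 0, and their median was -0.01. At an unadjusted p under 0.05, 2 of 9 genes (*B2M* and *CD74*) were higher in HC, against 5.89% of all tested genes. Leaving out single cows gave 1 to 5 genes at such a p. The share of all genes at such a p was not computed for these fits, in which 83 to 404 of all genes were called. The count was 1 without CONHC cow 123, for instance, and 1 without cow 117 (*CD74*). It was 5 without CONHC cow 134 or GLYHC cow 37.

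*CD74* came closest to a call. Its level was 202.5 to 678.9 CPM with a median of 376.1 in 16 HC cows, and 169.0 to 472.4 CPM with a median of 235.9 in 15 LC cows. Thus, 15 of 16 HC cows lay above the LC median and 2 of 15 LC cows above the HC median. The log2 fold change was 0.48 ± 0.15 (SE) with a Benjamini-Hochberg adjusted p of 0.121 in the edgeR test. With DESeq2 the same comparison gave 0.48 and an adjusted p of 0.0548, which passed the threshold, so the call on *CD74* depended on the tool. Leaving out 1 of CONHC cow 134, CONLC cow 260, GLYHC cow 37 or GLYLC cow 544 also brought the edgeR value past the threshold, and over all alternatives the adjusted p lay between 0.0529 and 0.222.

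*B2M* had 14 of 16 HC cows above the LC median of 963.2 CPM, and a log2 fold change of 0.35 ± 0.16 (SE) with an edgeR adjusted p of 0.326. *CIITA* had 13 of 16 HC cows above the LC median of 3.24 CPM, with 0.31 ± 0.16 (SE) and an adjusted p of 0.394 in edgeR. *PSMB9* (0.38 ± 0.24), *PSMB8* (0.29 ± 0.21) and *TAP2* (0.22 ± 0.11) had log2 fold changes with adjusted p from 0.375 to 0.592 in the same edgeR fit. *TAPBP* (0.12 ± 0.07), *TAP1* (0.12 ± 0.18) and *NLRC5* (0.07 ± 0.18) had the smallest log2 differences.

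Markers of leukocytes were compared in the same way. Among all tested genes, 46% lay above 0, 5.89% were higher at an unadjusted p under 0.05, 0.679% were called higher and 0.773% lower. All 4 pan-leukocyte genes had HC versus LC log2 fold changes above 0 (0.18 to 0.36), 1 of them at an unadjusted p under 0.05. Of 10 macrophage and Kupffer cell genes, 8 lay above 0 and 1 was called higher, the lysosomal glycoprotein gene *CD68* (0.61 ± 0.17, edgeR adjusted p = 0.0950). *CD68* was highest in cow 117 (76.4 CPM, HC) and lowest in cow 912 (16.8 CPM, LC). The summed level of the pan-leukocyte genes was 104.6 to 212.7 CPM in CONHC, 96.5 to 203.7 in CONLC, 107.4 to 266.6 in GLYHC and 108.3 to 186.5 CPM in GLYLC. That of the macrophage genes was 671.6 to 1482 CPM in CONHC, 734.4 to 1286 in CONLC, 742.8 to 1595 in GLYHC and 763.2 to 1292 CPM in GLYLC. Dendritic cell genes lay above 0 for 5 of 6, B cell genes for 3 of 5 and T and NK cell gene rows for 8 of 9, with none called. Of the other cell types, values above 0 were found for 6 of 8 hepatocyte, 1 of 6 endothelial, 2 of 3 bile duct and 0 of 2 red cell genes, with none called, and for 0 of 4 stellate and fibroblast genes, with *DCN* called lower in HC (-0.50 ± 0.10, edgeR adjusted p = 0.0275). *DCN* had its lowest value in cow 117 (43.1 CPM). Intestinal genes were called lower for 3 of 4, with cow 912 in LC, and epidermal keratin genes higher for 2 of 3. The keratin genes were near the floor, with 0 reads in 22 cows for *KRT1*, 17 for *KRT14* and 5 for *KRT5*. *KRT1* reached 4.66 CPM in GLYHC cow 154, and *KRT14* and *KRT5* reached at most 0.669 and 0.717 CPM. No gene of the pan-leukocyte or macrophage list was at 0 reads in every cow of a group. Their part in the differences of *CD74* and the other genes was not tested.

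Within the control ration, CONHC versus CONLC, none of the 9 genes was called (0% of all genes). *TAP2* was at an unadjusted p under 0.05 and higher in CONHC (log2 fold change 0.32 ± 0.16, edgeR adjusted p = 0.828), as were 2.71% of all tested genes in that direction and 5.96% in either. *CD74* had a log2 fold change of 0.39 ± 0.20 with an edgeR adjusted p of 0.834. In total, 7 of 9 genes lay above 0, against 46.2% of all genes, but *NLRC5* among them by only 7.2e-05. The 9 genes are not independent of each other.

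Within the GLY ration, GLYHC versus GLYLC, none of the 9 genes was called, against 0.201% of all genes. However, 4 of 9 genes were at an unadjusted p under 0.05, all higher in GLYHC, against 5.06% of all tested genes in that direction and 12.5% in either. These were *PSMB8* (log2 fold change 0.63 ± 0.29, edgeR adjusted p = 0.371), *B2M* (0.61 ± 0.23, 0.259), *CD74* (0.57 ± 0.21, 0.258) and *TAPBP* (0.21 ± 0.09, 0.342). The fitted value was above 0 for 9 of 9 genes, against 48.6% of all genes.

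These values changed when cow 117 was left out. Without this cow, the GLYHC versus GLYLC log2 fold change was 0.09 for *PSMB8*, 0.27 for *B2M*, 0.16 for *TAPBP* and 0.42 ± 0.20 for *CD74*, and only *CD74* was left at an unadjusted p under 0.05 (edgeR adjusted p = 0.401). *TAP1*, *NLRC5* and *PSMB9* then had values of -0.07, -0.19 and -0.02. With cow 912 left out as well, 0 of 9 genes were at an unadjusted p under 0.05. In HC versus LC, leaving out cow 117 gave 0.40 ± 0.14 for *CD74* (edgeR adjusted p = 0.170), 0.18 for *B2M*, 0.03 for *PSMB8* and 0.10 for *PSMB9*, and the values of *TAP1* and *NLRC5* moved below 0, to -0.07 and -0.09.

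**Figure D2:**
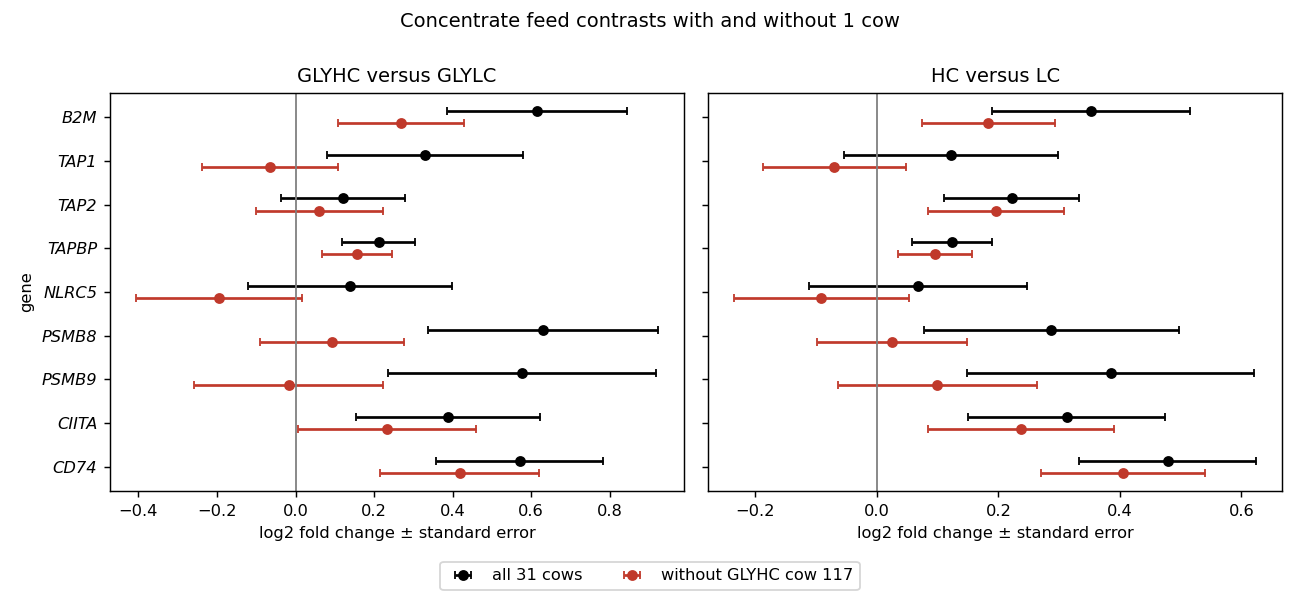
Log2 fold change ± SE (horizontal axis) of the 9 genes in GLYHC versus GLYLC (left) and HC versus LC (right), from all 31 cows (black) and without cow 117 (red). *PSMB8* in GLYHC versus GLYLC moves from 0.63 to 0.09, whereas *CD74* in HC versus LC moves from 0.48 to 0.40.

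To address glyphosate residues, GLY groups were compared with CON groups at the same CFP. For GLYHC versus CONHC, none of the 9 genes was called (0% of all genes) and none was at an unadjusted p under 0.05, against 2.92% of all genes. All 9 fitted values lay above 0 (51.4% of all genes), with *PSMB8* at 0.53 ± 0.28 and *B2M* at 0.40 ± 0.22 (edgeR adjusted p = 1 for both). Without cow 117, 5 of 9 values lay above 0, with *B2M* at 0.05 and with *NLRC5* at -0.26, *PSMB9* at -0.23, *CD74* at -0.02 and *PSMB8* at -0.01. The count at an unadjusted p under 0.05 was 3 without cow 37, 2 without cow 32, 127 or 159, and 1 without cow 154, all of GLYHC. Each of those fits kept cow 117. The share of all genes at such a p was not computed for them, so these counts have no background here. For GLYLC versus CONLC, none was called, against 0.0628% of all genes, 3 of 9 values lay above 0 (49.4% of all genes), and *TAP2* alone was at an unadjusted p under 0.05 and higher in GLYLC (0.34 ± 0.16, edgeR adjusted p = 0.852), as were 3.71% of all genes in that direction and 5.65% in either.

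Over both CFP, GLY versus CON, none was called (0% of all genes, 51.4% with a value above 0), and *TAP2* was again the one gene at an unadjusted p under 0.05. In its direction, higher in GLY, 2.47% of all genes were at such a p, and 3.93% in either. *TAP2* ran from 1.89 over 2.56 to 3.75 CPM in 15 GLY cows and from 1.26 over 2.19 to 3.45 CPM in 16 CON cows. The log2 fold change was 0.24 ± 0.11 with an edgeR adjusted p of 0.9999, and 13 of 15 GLY cows lay above the CON median. The other 8 genes had values from 0.00 (*NLRC5*) to 0.21 (*TAP1*). Without cow 117, *TAP2* was at 0.21, no gene was at an unadjusted p under 0.05, and 3 of 9 values lay above 0, with *TAP1* at 0.01, *PSMB8* at -0.07, *PSMB9* at -0.12 and *NLRC5* at -0.16. The interaction of GLY with CFP was not called for any of the 9 genes (0% of all genes, edgeR adjusted p = 0.999 for each), with the largest value for *PSMB8* (0.67 ± 0.41), 8 of 9 values lay above 0 (51.6% of all genes), and 4.23% of all genes but none of the 9 were at an unadjusted p under 0.05. Without cow 117 the interaction was 0.13 ± 0.25 for *PSMB8*, and 5 of 9 values lay above 0. DESeq2 on all cows called none of the 9 genes in any comparison other than HC versus LC.

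The ranges of the compared groups overlapped for all 9 genes in all 4 comparisons of single groups. Groups without overlap were rare in general, from 0.00628% of all genes in GLYHC versus CONHC and GLYLC versus CONLC to 0.0188% in CONHC versus CONLC and 0.0942% in GLYHC versus GLYLC.

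The spread between cows of a group was set beside that of other genes. The median SD within groups was 0.46 on the log2 scale for the 9 genes, against 0.27 for 11835 genes with a mean of at least 1 CPM. *PSMB9* (0.63), *PSMB8* (0.54) and *NLRC5* (0.50) had the largest SD, above that of 92.4%, 89.1% and 86.9% of those genes, whereas *TAPBP* (0.18) was above only 17.8%. Without cow 117 the median SD was 0.36 for the 9 genes and 0.27 for all, *PSMB9* (0.46), *PSMB8* (0.36) and *NLRC5* (0.40) were above 84.5%, 71.0% and 78.2%, and *TAPBP* (0.16) above 13.6%.

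**Figure D3:**
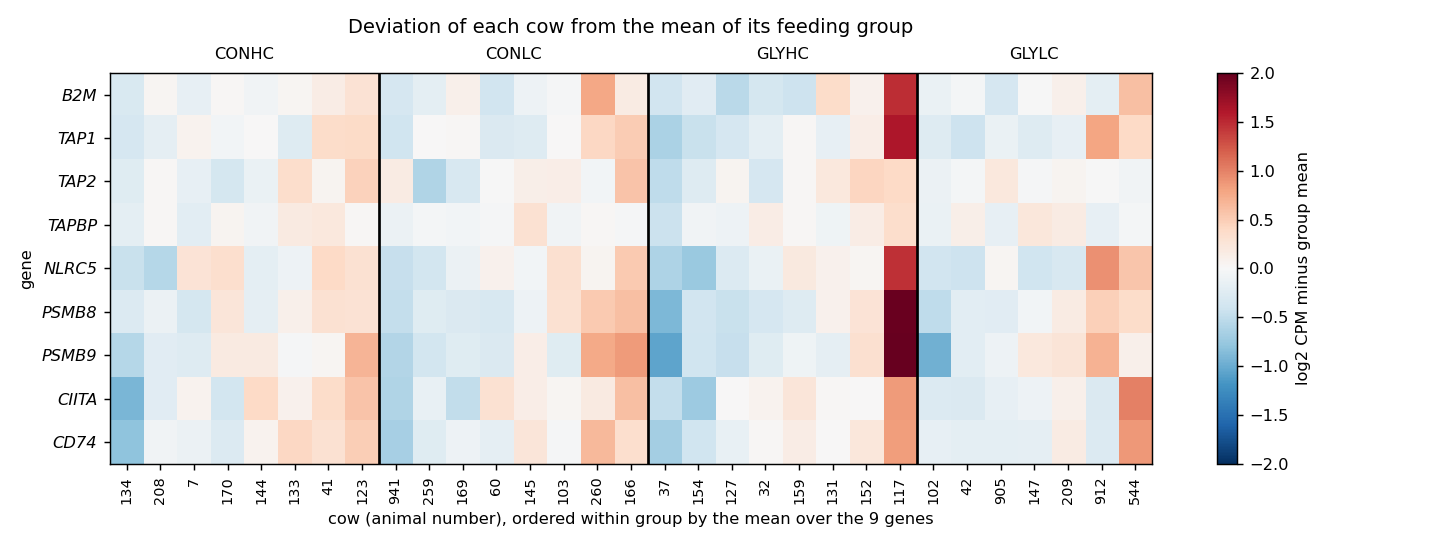
Log2 CPM of the 9 genes (rows) in 31 cows (columns, grouped by ration) minus the mean of the feeding group; red is above and blue below the group mean. Cow 117 of GLYHC is red in all 9 rows. Other cows differ in sign between rows, such as cow 912 of GLYLC, which is red for *TAP1* and *NLRC5* and blue for *CIITA* and *CD74*.

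Cow 117 was singled out after its values were seen. It was the highest of the 31 cows for 8 of 9 genes, while it was the highest for 7.11% of all tested genes. Relative to the median of the other 30 cows, its CPM was 5.07 times as high for *PSMB9*, 5.05 times for *PSMB8*, 3.71 times for *TAP1*, 3.65 times for *B2M* and 2.87 times for *NLRC5*. It was 2.24 times as high for *CD74*, 2.23 times for *CIITA*, 1.52 times for *TAP2* and 1.38 times for *TAPBP*. The library of this cow held 12841805 reads, within the range of the others. At the other end, cow 37, also GLYHC, was the lowest of all cows for 3 of 9 genes (*TAP1*, *TAPBP* and *PSMB8*).

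Of 10 genes of interferon gamma signaling, cow 117 had the highest value of the 31 cows for 4. *IFNG* itself, the cytokine gene, had 17 reads (1.21 CPM) in this cow, at most 0.157 CPM in any other, and 0 reads in 11 cows, which allows up to 0.112 to 0.264 CPM in those libraries (3 reads each). *IRF1*, an interferon-induced transcription factor gene, was at 78.6 CPM in cow 117, against 16.04 to 47.1 CPM in the others. *IRF8*, an interferon regulatory factor of myeloid cells, was at 27.9 CPM in cow 117, against 7.48 to 17.3 CPM. The receptor genes *IFNGR1* and *IFNGR2* ranked 6 and 4 among the 31 cows in this cow, *IRF2* ranked 5, *SOCS1* 13 and the kinase gene *JAK1* 15, and *JAK2*, another kinase gene, had its lowest value there (7.93 CPM).

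The summed pan-leukocyte level of 266.6 CPM, T and NK cell level of 63.0 CPM, macrophage level of 1595 CPM and dendritic cell level of 25.8 CPM were the highest of the 31 cows, with cow 117 first for 4 of 4, 7 of 9, 5 of 10 and 2 of 6 of their gene rows. By summed level, cow 117 ranked 5 for B cell genes, 3 for endothelial, 16 for bile duct, 27 for red cell, 28 for hepatocyte, 31 for stellate and fibroblast, 6 for intestinal and 3 for epidermal genes. The part of these cells in the levels of the 9 genes in cow 117 was not tested.

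To compare the inducible with the constitutive proteasome, the log2 ratio of each inducible subunit to the subunit it replaces was formed per cow. Only differences between cows can be read from such a ratio, because gene length enters its sign. *PSMB8* to *PSMB5* was -2.13 to -1.25 in CONHC, -2.44 to -1.49 in CONLC, -2.43 to 0.32 in GLYHC and -2.51 to -1.42 in GLYLC. Cow 117, at 0.32, was the highest, the top of the other 3 groups being at -1.25, and its *PSMB5*, *PSMB6* and *PSMB7* levels were 0.99, 1.04 and 0.99 times the median of the other cows. *PSMB9* to *PSMB6* differed by 0.45 between CONHC (-3.42 ± 0.32, SD, n = 8) and CONLC (-3.87 ± 0.50, n = 8), with an exact two-sided permutation p of 0.0544 and an adjusted p of 0.436 over 12 tests. The exact tests of *PSMB8* to *PSMB5*, *PSMB9* to *PSMB6* and *PSMB10* to *PSMB7* in the 4 comparisons of single groups gave adjusted p from 0.436 to 0.949.

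The transactivators and the genes they control were then followed across cows, on log2 CPM minus the group mean, in a family of 8 pairs over 31 cows with two-sided permutation tests. *NLRC5* and *TAP1* varied together (Pearson r = 0.89, Spearman rho = 0.80, permutation p = 1e-05 for both, the smallest the 100000 permutations can give; adjusted p = 2e-05 and 4e-05). *NLRC5* with *PSMB8* gave r = 0.82 and rho = 0.70 (permutation p = 1e-05 and 2e-05, adjusted p = 2e-05 and 5.33e-05), and *NLRC5* with *PSMB9* r = 0.77 and rho = 0.61 (permutation p = 1e-05 and 0.0004, adjusted p = 2e-05 and 0.00064). Without cows 117 and 912, which lie farthest from the *NLRC5* median, r was 0.79, 0.69 and 0.58. Within single groups, r for these pairs lay between 0.565 and 0.977.

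The other class I genes followed *NLRC5* less closely. For *B2M*, r was 0.60 and rho 0.44 (permutation p = 0.00121 and 0.0147, adjusted p = 0.00161 and 0.0196), but without cow 117 r was 0.31 with an adjusted permutation p of 0.118. *TAP2* gave r = 0.45 and rho = 0.39 (permutation p = 0.0101 and 0.0321, adjusted p = 0.0116 and 0.0367) with all cows, and r = 0.37 with an adjusted permutation p of 0.0556 without cow 117. For *TAPBP* no relation was detected (r = 0.29, rho = 0.21, permutation p = 0.115 and 0.252, the adjusted values being the same), although r was 0.405 and past the threshold without cow 912 and 0.0467 without cow 117. Leaving out the 2 cows farthest from the *NLRC5* median gave r = 0.45, 0.43 and 0.19 for *B2M*, *TAP2* and *TAPBP*. The relations were uneven between groups. In GLYHC, with cow 117, r was 0.858, 0.704 and 0.766 for *B2M*, *TAP2* and *TAPBP*. In GLYLC it was 0.183, 0.0548 and -0.612, with CONHC and CONLC in between.

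*CIITA* and *CD74* had r = 0.88 and rho = 0.86 (permutation p = 1e-05 for both, adjusted p = 2e-05 and 4e-05), and r = 0.83 without cows 544 and 134, which lie farthest from the *CIITA* median. This held within each group, with r between 0.69 (CONLC) and 0.99 (GLYLC). *NLRC5* and *CIITA* were also related (r = 0.66, rho = 0.65, permutation p = 6e-05 and 0.00012, adjusted p = 9.6e-05 and 0.00024), and r was 0.73 without cows 117 and 912. Within groups, r of *NLRC5* with *CIITA* ran from 0.339 (GLYLC) to 0.952 (GLYHC). All values come from the same libraries, and leukocyte markers varied between these cows as well; their part in the relations was not tested.

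**Figure D4:**
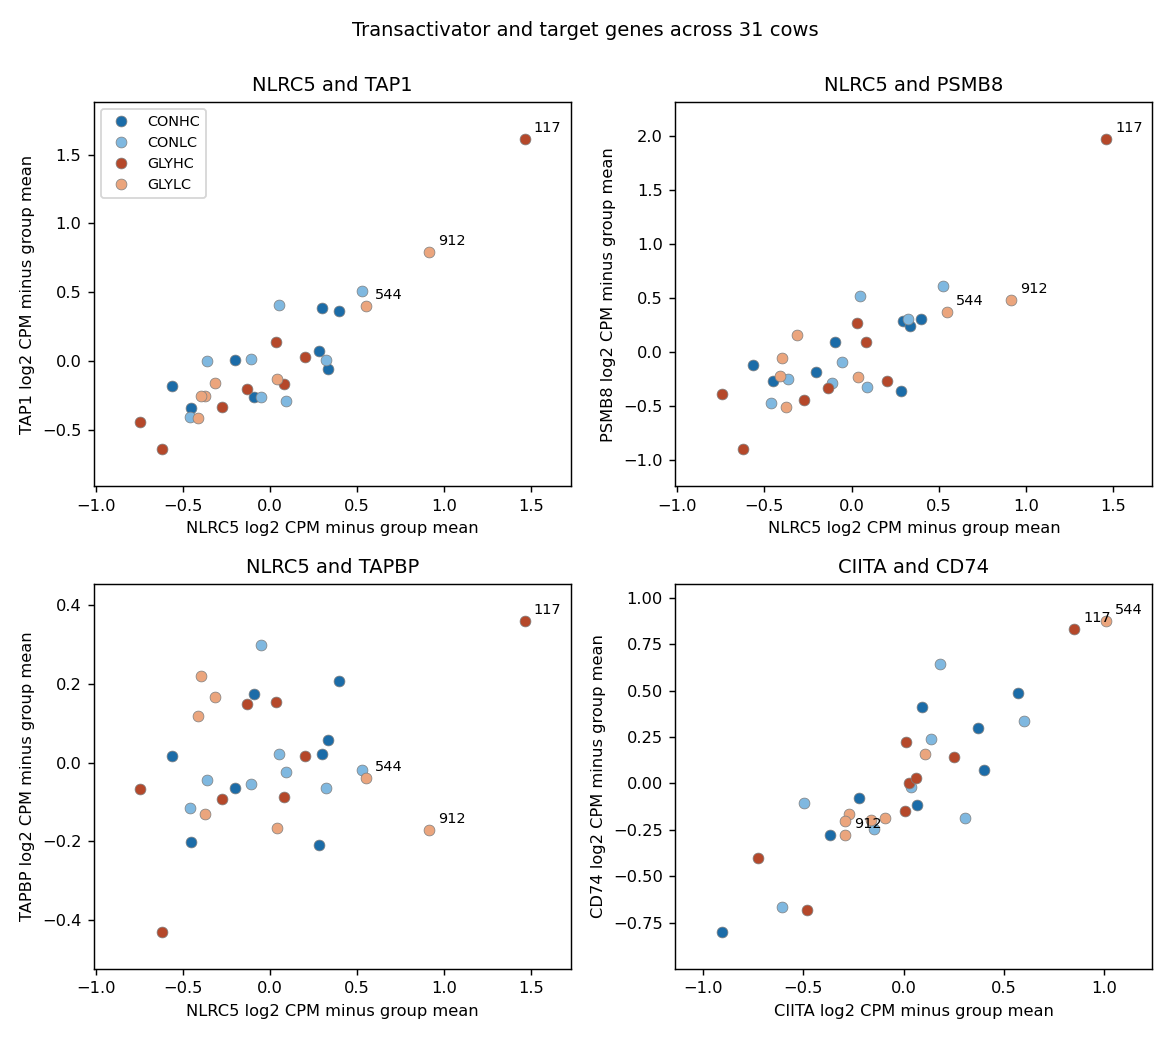
Log2 CPM minus the group mean of a transactivator (horizontal axis) and of a gene it controls (vertical axis) in 31 cows, colored by feeding group. *NLRC5* with *TAP1* (r = 0.89) and *CIITA* with *CD74* (r = 0.88) form rising bands, the *NLRC5* and *TAPBP* points are scattered (r = 0.29), and cow 117 lies at the upper right of the class I panels.

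The nearest genes by pattern over the 31 cows, ranked by Spearman's rho of group-centred log2 CPM, are given as a description. For *NLRC5* and *TAP1* the closest gene was *WARS*, a tryptophanyl-tRNA synthetase (rho = 0.90 and 0.82), with *IRF1* second for *TAP1* (0.80). For *PSMB9* it was *PSMB10*, the remaining inducible proteasome subunit (0.88), which was second for *PSMB8* (0.86) behind a row without a gene name. For *CD74* the closest genes were *LAPTM5*, a lysosomal protein of leukocytes (0.93), *PTAFR*, the receptor of platelet-activating factor (0.92), and *TYROBP*, a signaling adaptor of myeloid and NK cells (0.91). *CIITA* was closest to *ADCY7* (0.83) and the class II chain gene *BOLA-DRA* (0.80), *B2M* to the interferon-induced *IFI6* (0.85), *TAPBP* to *CTSZ* (0.82) and *TAP2* to *MYO1F* (0.73). In RefSeq's annotation of assembly ARS-UCD2.0, which is not the build of the count table, *PSMB8*, *TAP1* and *PSMB9* are consecutive protein-coding genes and *TAP2* borders *BOLA-DOB*. Among the 9 genes, *PSMB8* and *PSMB9* were the closest pair (rho = 0.87), whereas *TAP1* and *TAP2* gave a rho of 0.29.

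The other genes of the pathway were described by lists, first in HC versus LC. There, 46% of all tested genes lay above 0, 0.679% were called higher and 0.773% were called lower. Of 5 genes listed as class I heavy chains, the class I-related *MIC1* among them, none was called and 3 lay above 0, with a median log2 fold change of 0.29. Of 8 genes for class I loading and peptide trimming, *HSPA5*, an endoplasmic reticulum chaperone, was called lower in HC (-0.90 ± 0.25, edgeR adjusted p = 0.0918), and the list had a median of -0.06. *HSPA5* was highest in cow 912 (852.0 CPM, against at most 388.0 CPM in the others), and no gene of the list was called without cow 912 or without cow 117. Of 4 genes for the proteasome activator and *PSMB10*, none was called (median 0.07). The constitutive subunit genes *PSMB5*, *PSMB6* and *PSMB7* all lay below 0, at -0.18, -0.19 and -0.16 with an unadjusted p under 0.05 for 3 of 3 (7.8% of all tested genes in that direction), but none was called (edgeR adjusted p from 0.161 to 0.255).

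In HC versus LC, 46% of all tested genes lay above 0, 5.89% were higher at an unadjusted p under 0.05 and 0.679% were called higher. For class II, 9 of 9 chain and editor genes lay above 0 (median 0.39), and 3 of 9 were at an unadjusted p under 0.05 and higher, but none was called. These were *BOLA-DRA*, the alpha chain of the DR molecule (0.51 ± 0.15, edgeR adjusted p = 0.114), and *BOLA-DMA* and *BOLA-DMB*, the chains of the peptide editor (0.38 and 0.35). Of 7 genes for lysosomal processing, all lay above 0 (median 0.26) and 2 were called. The cathepsin genes *CTSH* (0.69 ± 0.15, edgeR adjusted p = 0.0371) and *CTSS*, whose protease trims the invariant chain (0.50 ± 0.13, adjusted p = 0.0809), were higher in HC. *CTSH* ran from 23.9 over 37.8 to 47.3 CPM in CONHC, from 14.5 over 24.6 to 39.1 CPM in CONLC, from 19.8 over 44.1 to 66.1 CPM in GLYHC and from 16.7 over 22.1 to 35.5 CPM in GLYLC. Both HC medians were above both LC medians, with overlapping ranges. Without cow 117, *CTSH* was still called (0.63 ± 0.15, edgeR adjusted p = 0.0491) and *CTSS* was not (0.46 ± 0.13, adjusted p = 0.109). *IFI30*, a lysosomal thiol reductase gene, had 0.57 ± 0.18 with an edgeR adjusted p of 0.131.

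Of 7 promoter factors shared by MHC genes, none was called (median -0.08), with *RFX5* at 0.35 ± 0.12 (edgeR adjusted p = 0.172). Of 10 genes of interferon gamma signaling, none was called and 10 lay above 0 (median 0.20), against 46% of all tested genes. *IRF8* was among the 10 (0.40 ± 0.12, edgeR adjusted p = 0.110). In GLYHC versus GLYLC, no gene of these 8 lists was called, and the median log2 fold changes were 0.36 for class I heavy chains, -0.05 for loading and trimming, 0.06 for the activator and *PSMB10*, -0.20 for constitutive subunits, 0.53 for class II chains, 0.54 for lysosomal processing, -0.07 for promoter factors and 0.18 for interferon gamma signaling, beside -0.01 for all tested genes. At an unadjusted p under 0.05, 4 lysosomal, 2 class I heavy chain, 2 class II chain, 2 interferon gamma signaling and 1 promoter factor genes were higher in GLYHC (5.06% of all tested genes), and 2 constitutive subunit, 1 loading and 1 activator genes were lower (7.45% of all tested genes). Without cow 117, 4 lysosomal, 1 class I heavy chain, 0 class II chain, 1 interferon gamma signaling and 1 promoter factor genes were higher at such a p, and the medians were 0.46, 0.19, 0.35, 0.07 and -0.09. In GLYHC versus CONHC, GLYLC versus CONLC and GLY versus CON edgeR called no gene of these lists either.

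**Figure D5:**
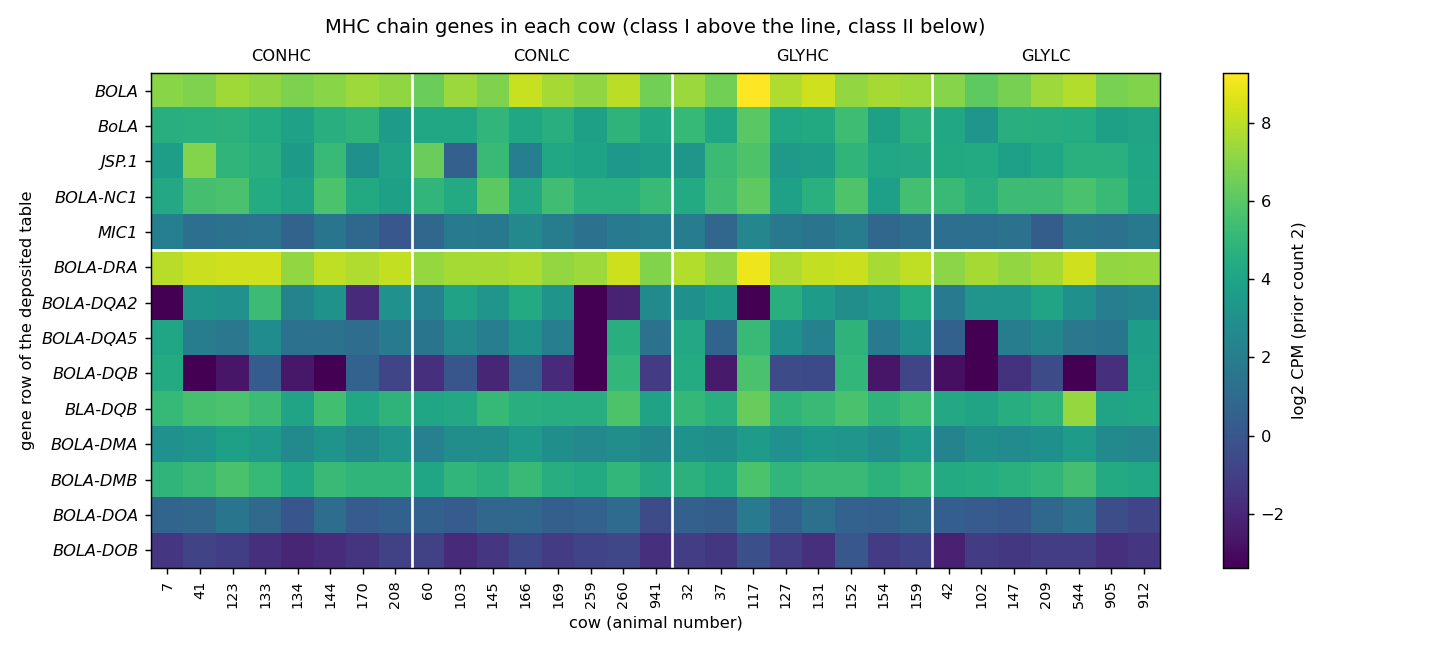
Log2 CPM (color, prior count 2) of 14 MHC chain genes (rows, class I above the line and class II below) in 31 cows (columns, by feeding group). *BOLA-DQA2*, *BOLA-DQA5*, *BOLA-DQB* and *JSP.1* change from dark to light between cows of a group, and *BOLA-DRA* and *BOLA-DMB* vary less between cows than these 4.

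The chains that the 9 genes serve varied between cows in another way. MHC haplotypes differ between cattle in sequence and in gene content, reads were counted against 1 reference, and near-identical copies can share or lose reads, so the levels of these rows are uncertain. *BOLA-DQB* ran from 0 to 50.5 CPM with a median of 0.340, and had 0 reads in 5 cows (2 CONHC, 1 CONLC and 2 GLYLC), which allows up to 0.143 to 0.236 CPM there (3 reads each, counting error only). *BOLA-DQA2* ran from 0 to 39.4 CPM with 0 reads in 3 cows, cow 117 among them, and *BOLA-DQA5* from 0 to 36.9 CPM with 0 reads in 2 cows. The class I row *JSP.1* ran from 1.33 to 123.1 CPM. *BOLA-DRA*, a chain gene with little variation in sequence, ran from 115.7 to 487.4 CPM and *BOLA-DMB* from 16.8 to 51.5 CPM. Cows with high and low *BOLA-DQB*, *BOLA-DQA2*, *BOLA-DQA5* and *JSP.1* values were found within the same feeding group, and none of the 4 genes was called in HC versus LC (edgeR adjusted p from 0.658 to 0.802).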

How the data were processed

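According to the study's methods and the submitters' processing notes, reads were trimmed (Trim Galore), aligned to UMD3.1 with HISAT2 2.1.0 and counted per gene with HTSeq 0.8.0. The authors deposited raw read counts per gene, which were used here, and a normalized table (DESeq2 1.20.0), which was not used. Counting on 1 reference can miss divergent MHC alleles. Groups came from sample titles; CFP values and sampling week came from the study's methods.

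Counts were fitted with edgeR 4.0.16 (R 4.3.3; TMM scaling, quasi-likelihood F test, two-sided) on all 31 cows, as a 4-group model and as additive models with treatment or CFP as covariate, for 15916 genes with at least 20 summed reads. SE was derived from the log2 fold change and its F value. Log2 CPM used a prior count of 2. Alternatives were RLE and upper-quartile scaling, other filters, a robust fit, only the compared groups, DESeq2 1.42.0, a stricter threshold and leaving out each cow. Permutation tests were run with numpy 2.4.6, with ranks from scipy 1.17.1. The fitting scripts were tested on simulated data. No sample pair within a group was duplicated (105 pairs, chi-square per gene 24.5 to 487), and pairs between groups were not compared. Counting error alone underlies the limits given for 0 reads.

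The 9 genes, the lists and the marker genes were chosen with earlier results of these data known; all 9 were to be named, as were list members that passed a threshold, and cow 117 and cow 912 were left out together only after the data were seen. Of symbols that begin with MIC, *MIC1* was kept in the heavy chain list and 8 that name other gene families were left out. The values of 1 gene of the interferon gamma list are not reported here.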

Additional observations from a re-analysis of the deposited data

Results flagged for a closer look

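In 36 combinations of gene and feeding group, the gap between the extreme cow and its neighbor was set against the range of the group (Dixon's ratio), and 9 exceeded the 95% critical value. Chance alone flags about 1 in 20 groups, and the 9 genes are not independent. In GLYHC, cow 117 stood apart for *TAP1* (ratio 0.656, 46.5 CPM against 16.7 in the next cow), *PSMB8* (0.593, 104.2 against 32.0), *NLRC5* (0.571, 22.9 against 9.52), *PSMB9* (0.562, 27.3 against 7.93) and *B2M* (0.554, 3773 against 1731). In GLYLC, cow 544 stood apart for *CIITA* (0.692, 7.08 CPM against 3.74) and *CD74* (0.623, 472.4 against 287.5). In CONLC, cow 145 stood apart for *TAPBP* (0.669, 127.7 CPM against 105.3) and cow 260 for *B2M* (0.53, 1763 against 1154). All 9 are high values.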

How the results depend on the processing

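The number of the 9 genes called stayed at 0 in 6 of 7 comparisons under all alternatives. In HC versus LC it was 1 (*CD74*) with DESeq2 on all cows and 0 to 1 when single cows were left out, being 1 without CONHC cow 134 (log2 fold change 0.53), CONLC cow 260 (0.53), GLYHC cow 37 (0.51) or GLYLC cow 544 (0.56). When single cows were left out, GLYHC versus GLYLC log2 fold changes ran from -0.0657 to 0.49 for *TAP1*, from -0.19 to 0.34 for *NLRC5* and from -0.0176 to 0.705 for *PSMB9*, and HC versus LC values from -0.0697 to 0.19 for *TAP1* and from -0.091 to 0.16 for *NLRC5*, the lowest always without cow 117. Log2 ratios for GLYHC versus CONHC ran from -0.0404 to 0.35 (*PSMB8* to *PSMB5*), from -0.21 to 0.21 (*PSMB9* to *PSMB6*) and from -0.0772 to 0.18 (*PSMB10* to *PSMB7*), again lowest without cow 117. For GLYLC versus CONLC they ran from -0.11 to 0.12 (*PSMB9* to *PSMB6*) and from -0.21 to 0.0213 (*PSMB10* to *PSMB7*). The correlation of *NLRC5* with *B2M* was 0.305 and with *TAP2* 0.373 without cow 117 (0.697 and 0.492 without cow 912), that with *TAP2* was 0.349 without centring on the group mean, and that with *TAPBP* was 0.0467 without cow 117 and 0.405, past the threshold, without cow 912.

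Counts over all genes moved more. They were 0 in CONHC versus CONLC (0 to 7 without single cows, 81 with DESeq2 on the 2 groups), 32 in GLYHC versus GLYLC (0 to 150, and 143 with DESeq2 on all cows), 0 in GLYHC versus CONHC (5 with DESeq2 on the 2 groups), 10 in GLYLC versus CONLC (0 to 41), 231 in HC versus LC (83 to 404, 434 with DESeq2 and 55 at an adjusted p under 0.05) and 0 in GLY versus CON (0 to 6). The cause was not tested. No paired analysis was possible because the animal numbers are unique to a cow and shared by 0 groups. *TAP2* and *IFNG*, with at most 97 and 17 reads per cow, are limited by depth.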
